A study of Mus musculus with 2 samples.

Results

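The genes described here are the nuclear-encoded genes of oxidative phosphorylation (OXPHOS), chosen by symbol and abundance. A gene was a member when its symbol began with Ndufa, Ndufb, Ndufc, Ndufs, Ndufv, Uqcr, Cox4 to Cox8 or Atp5, or was Sdha, Sdhb, Sdhc or Sdhd, and when it held at least 500 unique molecular identifiers (UMIs) over all barcodes of both libraries. Of the 31253 genes in the files, 96 matched by symbol and 89 of these were members, with 4738019 UMIs in all. Just inside the limit were Cox6a2 with 539 UMIs and Cox7a1 with 804, and just outside were Cox4i2 with 126 and Cox5b-ps with 56.

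Single-cell RNA was measured with 10x Genomics 3′ v3.1 chemistry in mouse thymocytes that had been enriched with beads against CD25, a surface protein of early double-negative (DN) thymocytes and of regulatory T cells. There was 1 library labelled WT and 1 labelled SETDBf/fCD4-Cre (cKO), and the enrichment was the only treatment given for either. The sex, age, strain and number of animals behind each library are not given in the sources used here, and which of Setdb1 and Setdb2 carries the floxed allele is left unstated by the genotype label. CD4-Cre is driven by Cd4 regulatory elements and is known to act from late in the DN stage onward, so most DN cells are thought to precede it. Since each genotype is 1 library, the genotypes could not be tested against each other, and genotype, animal, enrichment and capture cannot be told apart.

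OXPHOS runs in the inner mitochondrial membrane. Complex I (NADH dehydrogenase) and complex II (succinate dehydrogenase) pass electrons through ubiquinone to complex III (cytochrome bc1), and cytochrome c carries them on to complex IV (cytochrome c oxidase), while complex V (ATP synthase) uses the proton gradient built on the way to make ATP. Most subunits are encoded in the nucleus and a small set in mitochondrial DNA (mtDNA), so most of the complexes are built from the products of both genomes. Thymocytes proliferate in bursts, after pre-TCR signalling at the DN3 stage, and then rest as CD4 and CD8 double-positive (DP) cells.

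The members fell into 37 subunit genes of complex I, 8 complex I assembly factors of the Ndufaf family, all 4 of complex II, 8 of complex III, 15 of complex IV and 17 of complex V. Complex V held 34.3% of the members' UMIs, complex I 28.3%, complex IV 24.7%, complex III 9.65%, complex II 1.98% and the assembly factors 1.12%. The most abundant member of each was Atp5b (catalytic β subunit of the F1 head) in complex V with 157590 UMIs, Cox4i1 in complex IV with 144436, Uqcrh (the hinge protein) in complex III with 110096, Ndufb1-ps in complex I with 70597, Sdhb (the iron-sulphur subunit) in complex II with 34736, and Ndufaf8 among the assembly factors with 12388. Ndufb1-ps is named as a pseudogene and typed in GENCODE vM21 as a long noncoding RNA from a bidirectional promoter, while RefSeq lists Ndufb1, a complex I subunit, under this name, so its counts are uncertain as to gene. Ndufa4 is counted with complex IV, to which its protein is now assigned. UMIs count each molecule by its 3′ end and were not scaled to length, so levels in CPM (UMIs scaled to a common total per gate) compare molecules between genes. Members with near-identical processed pseudogenes may have lost reads that matched both.

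Cells were sorted into stages by gates on marker UMIs, each cell taking the first gate it met. After a gate on B-cell genes, Cd79a and Cd79b among them (at least 2 UMIs in sum), had been set aside, the Foxp3 gate took cells with at least 1 UMI of Foxp3 and none of Ptcra or Rag1. The cycling CD8 gate took cells with at least 2 UMIs of Mki67 or Top2a and at least 1 of Cd8a or Cd8b1, and the cycling DN gate those with at least 2 of Mki67 or Top2a, none of Cd8a or Cd8b1 and at least 1 of Ptcra. Cells without Mki67 and Top2a went to early DN (at least 2 UMIs of Kit or Cpa3, no Cd8), resting DN3 (at least 2 of Ptcra, no Cd8), resting DP (at least 2 of Cd8a or Cd8b1 and at least 1 of Rag1), the Klf2/S1pr1 gate (at least 2 of Trac and of Klf2 or S1pr1, with no Foxp3, Ptcra or Rag1) or post-selection (at least 2 of Trac and of Itm2a, Cd69 or Cd5, with the same genes absent). In WT and cKO the gates held 255 and 186 early DN cells, 714 and 492 resting DN3, 505 and 369 cycling DN, 664 and 574 cycling CD8, 1839 and 2758 resting DP, 190 and 247 post-selection, 142 and 157 Klf2/S1pr1 and 302 and 292 Foxp3 cells. The first gate, on B-cell genes, took 596 and 464 cells, and 1782 and 1833 cells met no gate. Markers that the gates had not used were summed as a check. The lists for early DN, DN3, DP, post-selection, mature and cycling cells and for regulatory T cells were each highest in the gate of that name in both libraries, except that the mature list was at 4472 and 4346 CPM in the Klf2/S1pr1 gate and at 4142 and 4557 CPM in the Foxp3 gate. The Klf2/S1pr1 gate also held regulatory T-cell markers at 3752 and 3861 CPM, against 4550 and 4225 in the Foxp3 gate, so it is called by its rule. Post-selection held its own list at 1308 and 1428 CPM, against 1290 and 1283 in resting DP, so this list hardly sets the gates apart in WT. Post-selection also held regulatory T-cell markers at 2387 and 2399 CPM and the mature list at 2262 and 1965. Early DN held its own list at only 150 and 104 CPM and was also the highest of these gates for markers of ILC, NK and gamma-delta cells (1049 and 921 CPM), with myeloid and dendritic markers at 486 and 474 CPM. The gate on B-cell genes held the DP list at 1789 and 1669 CPM and other B-cell markers at 544 and 350. These B-cell markers were at 341 and 344 CPM in resting DP, so that gate was not B cells alone.

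The libraries held 7852 and 8461 barcodes and 89370968 and 76668166 UMIs, of which 6989 and 7372 cells were kept, with medians of 7700 and 4653 UMIs. The barcode sequence was the same for 16 pairs of barcodes across the libraries. Median depth differed far more between gates than between libraries within a gate, from 2471 and 2262 UMIs in resting DP to 31814 and 29718 in cycling CD8. Setdb1 was at 33.5 and 36.1 CPM in resting DN3, 32.6 and 29.4 in resting DP and 20.3 and 23.3 in the Foxp3 gate, and Setdb2 at 8.43 and 10.4 in resting DP. Reads at the 3′ end outside a deleted exon do not check a deletion.

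Promoters are shown for members whose levels the results below turn on: the 3 genes that encode the same c subunit of the ATP synthase ring, the related pair Cox7a2 and Cox7a2l, and Ndufb1-ps and Atp5k, which were higher in the cKO library. Each is the RefSeq sequence on GRCm38.p6 from 250 bases before to 50 after the gene's start, read 5′ to 3′ on the gene's strand, which is the minus strand for all 7. Capitals mark matches on either strand to GCATGCGC (part of the palindromic NRF1 motif, so that both strands can match with an overlap), CCGGAAG (ETS factors such as GABP), AAGATGGCG (YY1) or GGGCGGG (SP1).
Atp5g1, chr11:96075582-96075881, minus strand: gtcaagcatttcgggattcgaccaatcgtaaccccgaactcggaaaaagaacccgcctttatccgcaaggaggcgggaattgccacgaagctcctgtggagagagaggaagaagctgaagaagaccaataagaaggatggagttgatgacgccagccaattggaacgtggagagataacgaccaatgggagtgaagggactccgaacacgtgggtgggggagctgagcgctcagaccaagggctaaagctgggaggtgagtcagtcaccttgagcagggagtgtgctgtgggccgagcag
Atp5g2, chr15:102670998-102671297, minus strand: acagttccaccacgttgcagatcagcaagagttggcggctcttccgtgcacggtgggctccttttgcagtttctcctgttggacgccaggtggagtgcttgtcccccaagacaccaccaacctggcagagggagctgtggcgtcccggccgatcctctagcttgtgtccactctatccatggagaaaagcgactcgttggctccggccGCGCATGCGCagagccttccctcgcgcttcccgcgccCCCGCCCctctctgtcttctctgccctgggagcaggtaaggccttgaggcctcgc
Atp5g3, chr2:73911277-73911576, minus strand: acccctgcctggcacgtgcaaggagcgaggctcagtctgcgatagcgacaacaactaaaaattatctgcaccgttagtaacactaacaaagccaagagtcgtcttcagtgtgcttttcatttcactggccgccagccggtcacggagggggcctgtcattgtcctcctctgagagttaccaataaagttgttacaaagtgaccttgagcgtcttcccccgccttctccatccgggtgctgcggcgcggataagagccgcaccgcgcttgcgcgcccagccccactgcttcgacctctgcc
Cox7a2, chr9:79759804-79760103, minus strand: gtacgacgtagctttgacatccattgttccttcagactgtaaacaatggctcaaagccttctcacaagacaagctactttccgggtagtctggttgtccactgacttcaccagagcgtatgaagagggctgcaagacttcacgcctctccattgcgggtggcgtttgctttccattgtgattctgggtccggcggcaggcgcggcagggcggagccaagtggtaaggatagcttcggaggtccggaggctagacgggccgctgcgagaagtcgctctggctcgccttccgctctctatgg
Cox7a2l, chr17:83514284-83514583, minus strand: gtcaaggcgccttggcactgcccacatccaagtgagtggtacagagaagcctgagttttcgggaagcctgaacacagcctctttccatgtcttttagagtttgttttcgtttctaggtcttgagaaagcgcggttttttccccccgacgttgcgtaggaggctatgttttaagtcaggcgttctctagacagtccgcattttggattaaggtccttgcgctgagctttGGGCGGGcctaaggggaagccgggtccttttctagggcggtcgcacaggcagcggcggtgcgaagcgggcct
Ndufb1-ps, chr12:101975689-101975988, minus strand: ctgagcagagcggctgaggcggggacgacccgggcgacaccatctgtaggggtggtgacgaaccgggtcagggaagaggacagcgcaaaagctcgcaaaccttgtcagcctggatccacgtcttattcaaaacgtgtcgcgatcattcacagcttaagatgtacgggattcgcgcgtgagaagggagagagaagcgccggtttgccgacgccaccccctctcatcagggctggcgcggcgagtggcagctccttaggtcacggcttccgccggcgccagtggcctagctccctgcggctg
Atp5k, chr5:108434350-108434649, minus strand: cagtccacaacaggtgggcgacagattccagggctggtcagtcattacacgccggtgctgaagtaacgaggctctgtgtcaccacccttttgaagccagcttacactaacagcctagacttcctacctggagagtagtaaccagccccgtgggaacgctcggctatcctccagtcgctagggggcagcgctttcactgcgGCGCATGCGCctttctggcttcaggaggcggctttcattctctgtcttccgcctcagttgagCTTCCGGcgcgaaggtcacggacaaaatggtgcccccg

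The c-subunit genes share a mature protein but not these letters. Atp5g1 and Atp5g3 held none of the 4 motifs, while Atp5g2 held overlapping NRF1 matches starting 40 and 42 bases before the start and an SP1 match 5 bases before it. Of the Cox7a pair, Cox7a2 held none and Cox7a2l an SP1 match 22 bases before the start. Atp5k held NRF1 matches 48 and 50 bases before the start and an ETS match 12 bases after it, and Ndufb1-ps held none. A match is a run of letters, not a measured site, and no match says only that these letters are absent from this window.

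Over the family, 75 of the 89 members had a promoter in the RefSeq table. Those without one included Cox4i1, Atp5mpl, Ndufaf6, Uqcrq and Sdhc, which are described below. The NRF1 core stood in 16% of the 75 promoters and in 2.80% of all 27025 promoters of the table, the ETS core in 24% and 9.12%, the YY1 core in 9.33% and 1.49% and the SP1 core in 36% and 25.8%. OXPHOS promoters were also rich in CG: 80% held at least 15 CG pairs, against 35.2% of all. Among the 8178 promoters of protein-coding genes with that many, NRF1 stood in 6.53%, ETS in 19.9%, YY1 in 3.56% and SP1 in 58.6%. The members' rates above are over all 75 promoters and not only the 60 with at least 15 CG pairs, so the sets differ in CG content. At least 1 motif was found in 45 members and none in 30. By complex, any motif was found in 20 of 33 complex I promoters, 5 of 7 assembly factors, 2 of 3 complex II, 3 of 5 complex III, 5 of 12 complex IV and 10 of 15 complex V promoters. YY1 matches lay in 5 complex I promoters, 1 assembly factor and 1 complex V gene, with none in complexes II, III and IV.

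The members' summed share of UMIs followed the cell cycle more than the genotype. In WT and cKO it was 2.32% and 2.47% in early DN, 2.32% and 2.39% in resting DN3, 3.08% and 3.18% in cycling DN and 3.34% and 3.43% in cycling CD8 cells. It was 2.28% and 2.27% in resting DP, 2.72% and 2.82% in post-selection, 2.596% and 2.592% in the Klf2/S1pr1 gate and 2.33% and 2.36% in the Foxp3 gate. The cycling gates were highest in both libraries and resting DP lowest. Early DN, resting DN3 and Foxp3 lay close above it, but ribosomal protein genes took 17.4% of UMIs in resting DP in both libraries and 28.5% to 32.0% in these and the cycling gates. Without mt- and ribosomal protein genes in the denominator the share was 2.92% in resting DP in both libraries, and the next lowest values were 3.52% in early DN in WT and 3.65% in the Foxp3 gate in cKO. In absolute terms a resting DP cell held 64.7 and 59.3 UMIs of the members and a cycling CD8 cell 1038 and 1034.

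As a share of UMIs, the 13 mtDNA-encoded OXPHOS genes ran the other way between cycling and resting gates. Their share was 4.84% and 4.43% in early DN, 5.76% and 5.60% in resting DN3, 3.12% and 2.80% in cycling DN and 2.48% and 2.15% in cycling CD8 cells. In the later gates it was 4.61% and 4.87% in resting DP, 3.92% and 4.35% in post-selection, 4.25% and 4.18% in the Klf2/S1pr1 gate and 4.03% and 4.01% in the Foxp3 gate. The members gave 0.403 and 0.427 UMIs per mtDNA-encoded UMI in resting DN3 and 1.34 and 1.60 in cycling CD8, the lowest and highest of the 8 gates. On average per cell, mtDNA-encoded UMIs were not fewer in cycling cells. The 664 and 574 cycling CD8 cells held 512509 and 371374 of them, and the 1839 and 2758 resting DP cells 240701 and 350347. The 505 and 369 cycling DN cells held 383713 and 261896, and the 714 and 492 resting DN3 cells 357596 and 237587. The mtDNA share also enters the cell filter, which removed barcodes above 10%. Over 10 other settings, filters at 5% and 20% among them, the mtDNA-encoded share of cycling DN over resting DN3 was between 0.499 and 0.646 in WT and 0.431 and 0.611 in cKO, and that of cycling CD8 over resting DP between 0.524 and 0.676 and between 0.431 and 0.565.

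**Figure D1:**
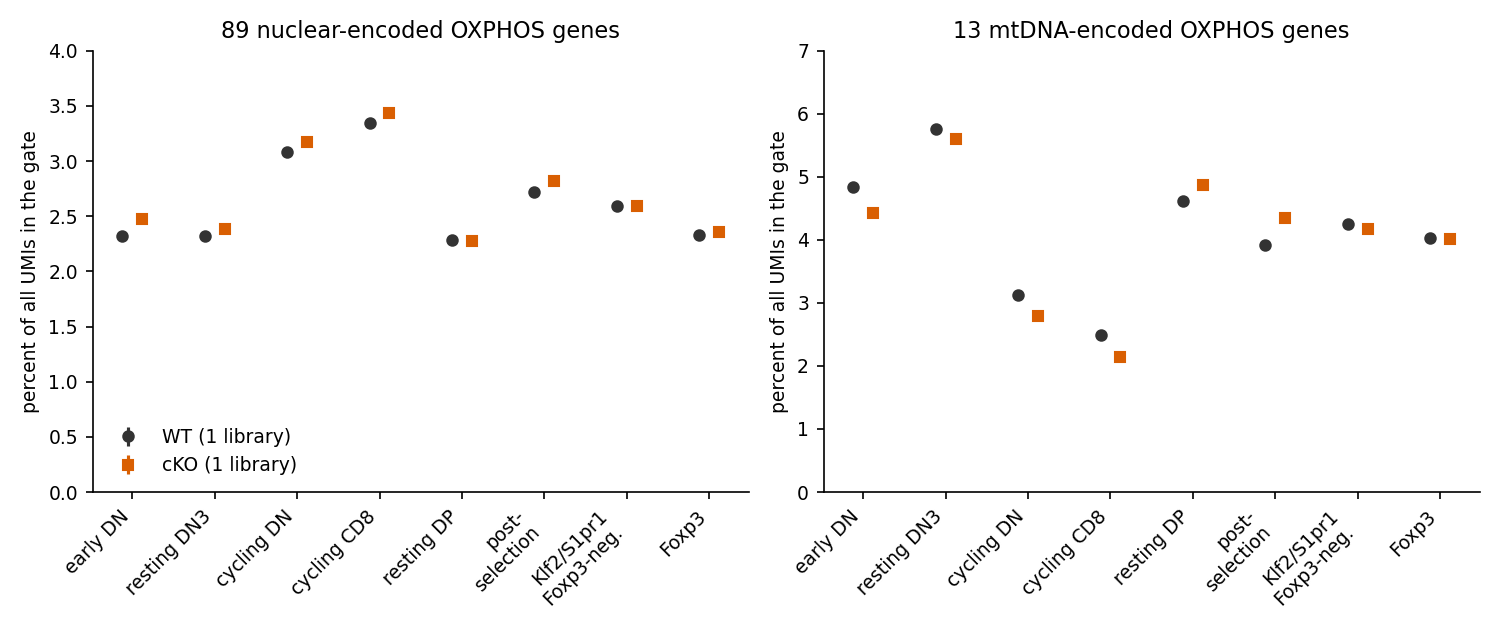
Percent of all UMIs from the 89 nuclear-encoded members (left) and the 13 mtDNA-encoded genes (right) in 8 marker gates, for the WT (black circles) and cKO (orange squares) library, with 95% counting intervals that are mostly smaller than the symbols. The nuclear share is highest in cycling CD8 cells (3.34% and 3.43%), where the mtDNA share is lowest (2.48% and 2.15%).

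Per cell at equal depth the cycling gates were again highest, while the Foxp3 gate and not resting DP was lowest. With each cell thinned to 2000 UMIs, the median cell gave the members 2.25% and 2.35% in resting DN3, 2.90% and 3.05% in cycling DN, 3.30% and 3.35% in cycling CD8 and 2.25% in resting DP in both libraries. The median was 2.15% and 2.20% in the Foxp3 gate. The unthinned WT medians were 2.95% in cycling DN and 3.31% in cycling CD8. In resting DP, 395 WT and 907 cKO cells were too shallow for this and were left out, against 5 and 6 in cycling CD8.

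Complex V took a larger part of the members' UMIs in cycling cells, and complex I a smaller part. Complex V held 30.8% and 30.9% of member UMIs in resting DP and 35.1% and 35.4% in cycling DN, its lowest and highest gates. Complex I held 30.7% in resting DP in both libraries and 27.6% and 27.5% in cycling CD8. Complex III stayed between 9.33% and 10.4% and complex IV between 23.7% and 26.3% over all gates and both libraries.

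The cycling DN gate does not separate cells dividing before pre-TCR signalling from those dividing after it. Against resting DN3, most members were higher in cycling DN cells in both libraries. The summed share was 1.33-fold higher in each, with 95% counting intervals of 1.32 to 1.33 in WT and 1.32 to 1.34 in cKO. Genes with at least 50 UMIs over the compared gates in each library were tested, with folds taken as log2 of (CPM + 5) ratios. Of 88 members tested, 24 were at least 1.5-fold higher in both libraries and 1 lower, against 12% higher and 15.6% lower among all 9282 genes. Those 24 are 27.3% of the members, and among the 1992 genes with at least 1000 UMIs, closer to the members' level, 23.7% were higher, so the count lay near that of equally abundant genes. The median member was at a log2 fold of 0.39 in WT and 0.41 in cKO, against -0.12 and -0.10 for all genes and 0.16 and 0.17 for the abundant ones. By sign alone, 78 members were above 0 in both libraries and 6 below.

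The members furthest up in this step came from several complexes. Cox5a, a structural subunit of complex IV, was at 313 and 312 CPM in resting DN3 and 698 in cycling DN in both libraries, a log2 fold of 1.14 and 1.15. The assembly factor Ndufaf2 went from 28.4 and 25.4 to 73.2 and 63.3 CPM, a log2 fold of 1.23 and 1.17. Ndufab1, the mitochondrial acyl carrier protein that is also a complex I subunit, went from 218 and 201 to 418 and 398. In both libraries the cycling value of these 3 genes lay well above the resting one.

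Complex V was 1.38-fold higher as a sum in both libraries, and its c-ring genes 1.544-fold in WT and 1.504-fold in cKO. All 17 complex V members were above 0 in both libraries, with medians of 0.44 and 0.41, and 6 passed 1.5-fold. Of complex I subunits 7 of 37 passed, of assembly factors 2 of 8, of complex II 2 of 4 (Sdhb and Sdhd, the iron-sulphur and a membrane subunit), of complex III 2 of 8 and of complex IV 5 of 14. Complex II was 1.49-fold and 1.53-fold higher as a sum, and complexes I and III 1.26-fold and 1.24-fold in both libraries.

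In the other direction stood Cox7a2l, which encodes a supercomplex assembly factor that joins complexes III and IV. It was at 468 and 479 CPM in resting DN3 and 274 and 287 in cycling DN, a log2 fold of -0.76 and -0.73. Next came Cox6b2, an isoform best known from testis, from 83.6 and 78.2 to 52.9 and 52.7 CPM, and the assembly factor Ndufaf3, from 59.8 and 49.5 to 42.0 and 31.4. Only Cox7a2l of these passed 1.5-fold in both libraries.

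The second cycling contrast, cycling CD8 against resting DP, was larger. The summed share was 1.47-fold higher in WT (1.46 to 1.47) and 1.51-fold in cKO (1.503 to 1.520). Of 88 members tested, 40 were at least 1.5-fold higher in both libraries and 2 lower, against 16.1% higher and 36% lower among all 9905 genes. The 40 are 45.5% of the members tested, and 26.1% of the 3536 genes with at least 1000 UMIs were higher. The median member was at 0.55 in WT and 0.56 in cKO, all genes at -0.33 and -0.35 and the abundant genes at -0.11 and -0.12. Depth moved with this contrast (above), and so did cytosolic ribosomal protein genes, which made up 17.4% of resting DP UMIs in both libraries and 29.4% and 30.2% of cycling CD8 UMIs. With mt- and ribosomal protein genes out of the denominator the share was 1.68-fold and 1.74-fold higher.

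Complex V led here. Of its 17 members 13 passed 1.5-fold, all 17 were above 0 in both libraries, and its sum was 1.67-fold and 1.71-fold higher. Complex I had 12 of 37 higher, complex II 2 of 4, complex III 4 of 8, complex IV 7 of 14 higher and 1 lower, and the assembly factors 2 higher and 1 lower of 8. Within complex II, Sdhb was at 161 and 154 CPM in resting DP and 280 and 268 in cycling CD8, and Sdhd at 101 and 98.9 and at 182 and 192. The flavoprotein subunit Sdha was nearly level, at 133 and 125 against 138 and 142 CPM, and Sdhc, which with Sdhd anchors the complex in the membrane, was at 62.3 and 52.1 against 95.6 and 93.4. Only Sdhb and Sdhd of the 4 passed 1.5-fold in both libraries.

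The c-ring differed more between these gates than complex V as a whole. Its 3 genes summed to a share 2.39-fold higher in WT and 2.49-fold in cKO. Atp5g1 was at 227 and 211 CPM in resting DP and 721 and 681 in cycling CD8, a log2 fold of 1.65 and 1.67. Atp5g2 went from 404 and 374 to 959 and 971 CPM, and Atp5g3 from 302 and 304 to 547 and 558. Ndufaf6, an assembly factor, had the largest fold of any member in the cKO library but few UMIs, at 7.28 and 4.44 CPM in resting DP and 32.2 and 31.5 in cycling CD8. Ndufaf2 went from 18.2 and 16.9 to 63.0 and 60.7 CPM.

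Cox7a2l was again the member furthest down, at 575 and 547 CPM in resting DP and 280 and 291 in cycling CD8, a log2 fold of -1.03 and -0.90. Ndufaf3 was at 69.0 and 68.6 against 40.1 and 37.1 CPM. The hinge protein gene Uqcrh was at 828 and 835 against 618 and 623, short of 1.5-fold. In both cycling contrasts Cox7a2l and Ndufaf3 were thus below their resting level in both libraries while their complexes were above it.

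**Figure D2:**
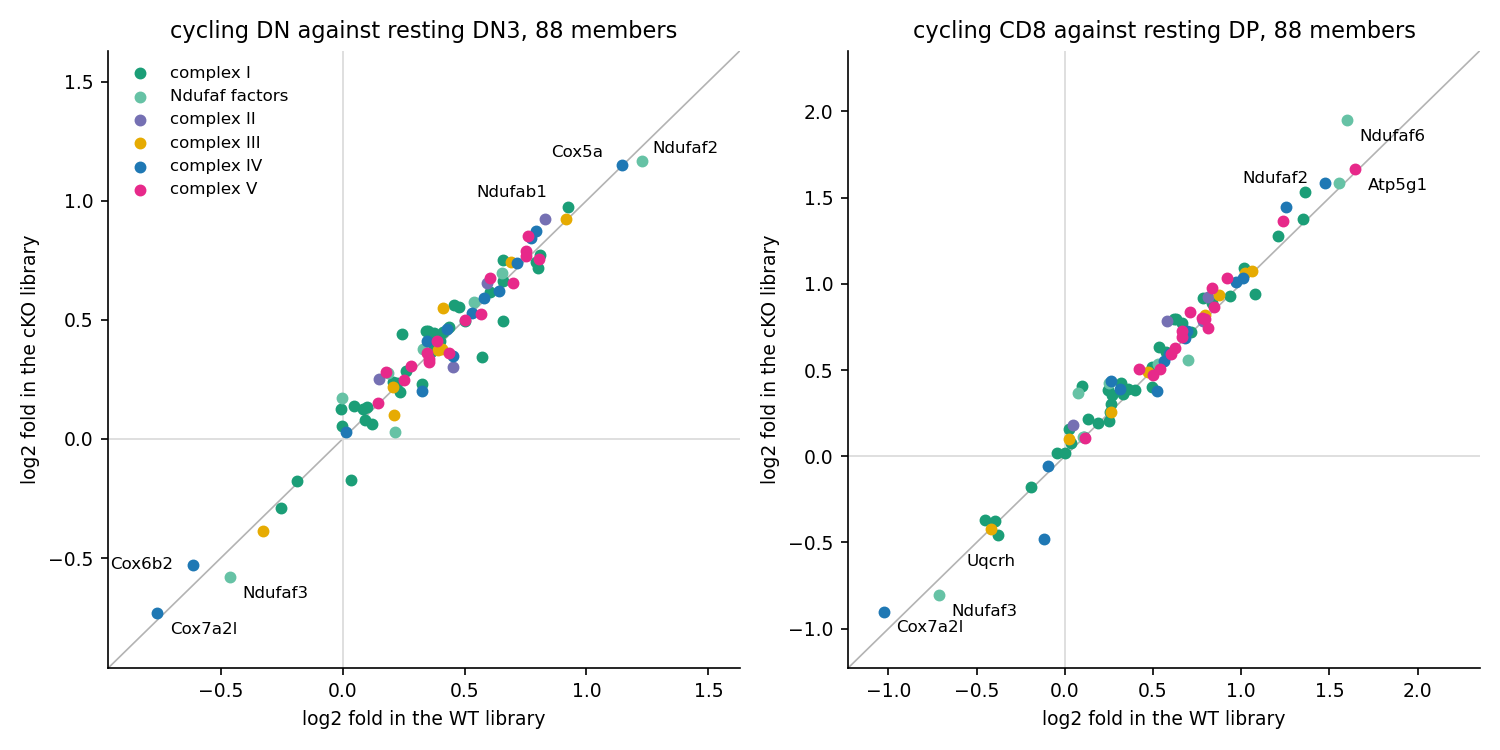
Log2 fold of each of 88 members between a cycling and a resting gate, in the WT library (x axis) and the cKO library (y axis), coloured by complex, with the diagonal drawn. Most points lie above 0 and near the diagonal in both panels (medians 0.39 and 0.41 left, 0.55 and 0.56 right), and Cox7a2l lies lowest in each.

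Resting gates differed less. In resting DP against resting DN3, 3 of 87 members were at least 1.5-fold higher in both libraries and 6 lower, against 20.9% and 11.1% of 9188 genes. The median was 0.02 in WT and -0.05 in cKO, with 0.20 and 0.24 for all genes. These counts depend on the scaling: without mt- and ribosomal protein genes in the denominator 0 were higher and 16 lower, scaled to the median gene 0 and 14, and under the stricter filter 1 and 10. The summed share was 0.981 and 0.951 times that of resting DN3, and 0.805 and 0.764 times with the reduced denominator. Higher were Cox6a1 (183 and 178 against 322 and 280 CPM), Ndufs4 (141 and 145 against 224 and 237) and Ndufv3 (145 and 142 against 235 and 249), the last pair being accessory subunits of the NADH-oxidising part of complex I. Lower were Atp5g1, Atp5g2, Atp5e (the small ε subunit of F1), Ndufa12, Ndufaf6 and Cox6b2. Atp5g1 was at 430 and 408 CPM in resting DN3 against 227 and 211 in resting DP, while Atp5g3 was at 278 and 302 against 302 and 304. Atp5e is named because of the small count, after its values were seen.

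In post-selection against resting DP cells, after TCR signalling has rescued a cell, 14 of 85 members were at least 1.5-fold higher in both libraries and 2 lower, against 8.49% and 16.4% of 8197 genes. Medians were 0.21 and 0.28, and -0.19 for all genes in both libraries. Atp5g1 stood highest, from 227 and 211 to 589 and 602 CPM, a log2 fold of 1.36 and 1.49. The complex IV subunit Ndufa4 went from 302 and 269 to 574 and 622 CPM, and Uqcrq, a small complex III subunit, from 263 and 268 to 554 and 543. Cox6b2 (27.2 and 33.2 against 6.22 and 12.4 CPM) and Ndufaf3 (69.0 and 68.6 against 40.4 and 39.2) were the 2 lower members. Cox7a2l was below its DP level here too, at 368 and 385 CPM. Myeloid and dendritic markers moved with this gate in 1 library: the 11 genes of the list summed to 769 CPM in WT post-selection cells, with 5 at 0, and 145 CPM in cKO, with 9 at 0, against 193 and 272 CPM in resting DP. Without cells holding any UMI of 8 defining genes of this list the summed share of the members was 1.20-fold and 1.24-fold the resting DP share, against 1.19-fold and 1.24-fold with them, and 14 members were again higher and 2 lower.

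Later steps held small differences. In the Klf2/S1pr1 gate against post-selection, 0 of 82 members passed 1.5-fold in either direction, against 3.4% higher and 5.91% lower of 4768 genes, and medians were -0.06 and -0.18. The summed share was 0.953 and 0.918 times the post-selection share, but 1.070 and 1.055 times when scaled to the median gene, so its direction depended on the scaling, and 6 members were lower with gates called on thinned counts. By mean log2 fold of the 2 libraries, Cox7a2l was furthest up, from 368 and 385 CPM in post-selection to 515 and 524 in the Klf2/S1pr1 gate. Ndufaf4 was furthest down, from 106 and 105 to 57.1 and 73.6, and Ndufa12 came next, at a mean of -0.565. In the Foxp3 gate against the Klf2/S1pr1 gate, 0 of 84 were higher and 1 was lower, against 2.05% and 0.955% of 5758 genes, with a median of -0.18 in both libraries. The lower one was Ndufaf4, at 36.2 and 36.6 CPM in the Foxp3 gate, and the count was 0 in 9 of 15 other settings, among them doublets kept and cells with myeloid marker UMIs left out. Uqcrq was at 465 and 454 CPM in the Klf2/S1pr1 gate and lower in the Foxp3 gate, at 309 and 331. By the folds defined above this was short of 1.5-fold in both libraries.

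Isoform shares within families differed between these gates. Of the Cox7a family's UMIs, Cox7a2l held 59.0% in WT and 59.5% in cKO resting DN3 cells and 33.7% and 34.4% in cycling DN. It held 56.1% and 54.2% in resting DP, 29.4% and 29.8% in cycling CD8, 45.4% and 45.5% in post-selection and 57.5% and 58.7% in the Foxp3 gate. Cox7a2, the ubiquitous complex IV subunit, took nearly all of the rest, from 322 and 324 CPM in resting DN3 to 532 and 542 in cycling DN and 664 and 677 in cycling CD8. Cox7a2 was the larger in both cycling gates and in post-selection, and Cox7a2l in the other 5 gates, in both libraries. Cox7a1, the muscle and heart isoform, held under 1% in every gate.

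The 3 c-subunit genes had a stage order of their own. Atp5g2 held the most in every gate but post-selection, from 42.1% of the family in cKO resting DP to 52.3% in cKO early DN. Atp5g3 held 19.6% in early DN in both libraries and 32.4% and 34.2% in resting DP, while Atp5g1 was lowest there, at 24.3% and 23.7%. In WT post-selection cells Atp5g1 held 35.7% (33.3 to 38.1), Atp5g2 32.1% (29.8 to 34.4) and Atp5g3 32.2% (30.0 to 34.6). In cKO the shares were 35.3% (33.1 to 37.6), 33.8% (31.6 to 36.0) and 30.9% (28.8 to 33.1). The intervals of Atp5g1 and Atp5g2 overlapped in both libraries, and in WT those of Atp5g1 and Atp5g3 did too.

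The tissue isoforms Cox6b2 and Cox6a2 of complex IV took their largest shares in DN cells. Cox6b2 held 14.7% and 14.4% of the Cox6b family in early DN, 16.7% and 14.7% in resting DN3, 9.20% and 9.14% in cycling DN, 4.27% and 3.77% in cycling CD8 and 5.76% and 7.10% in resting DP. In the 3 later gates it was between 0.951% and 2.61%. Cox6a2, the heart and muscle isoform, held 5.20% and 3.26% of the Cox6a family in early DN and 1.81% and 1.95% in resting DN3, and had 0 UMIs in post-selection, Klf2/S1pr1 and Foxp3 cells, which allows up to 1.11%, 1.17% and 0.728% of the family in WT by the upper 95% bound. Cox4i2, known from lung and oxygen response, held at most 0.271% of the Cox4i family. Cox8b and Ndufa4l2 had 0 UMIs in all gates.

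**Figure D3:**
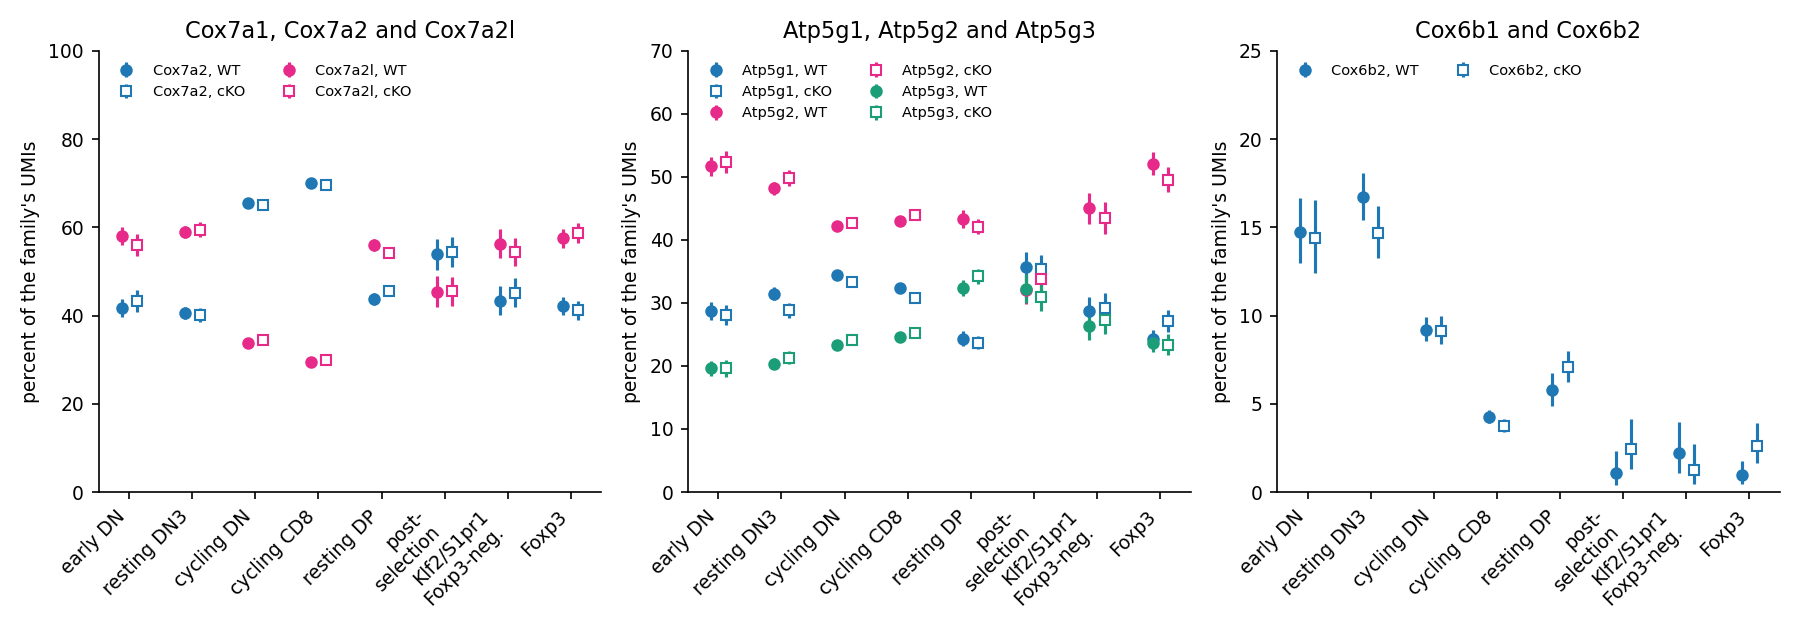
Percent of a family's UMIs held by Cox7a2 and Cox7a2l (left), by Atp5g1, Atp5g2 and Atp5g3 (middle) and by Cox6b2 (right) in 8 gates, with WT as filled circles, cKO as open squares and bars for 95% counting intervals. Cox7a2l is at 59.0% and 59.5% in resting DN3 and at 33.7% and 34.4% in cycling DN, and Cox6b2 is under 3% in the 3 gates on the right.

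Other mitochondrial genes give the setting of the cycling contrasts, to be read against the shares of all genes that were higher and lower in both libraries (12% and 15.6% in cycling DN, 16.1% and 36% in cycling CD8). In cycling DN against resting DN3, 10 of 13 mtDNA-encoded genes were at least 1.5-fold lower in both libraries and 0 higher. Higher were 2 of 19 tricarboxylic acid cycle genes, 3 of 16 electron and nucleotide carriers, 20 of 77 mitochondrial ribosome genes, 9 of 18 glycolysis genes and 1 of 82 cytosolic ribosome genes, with 0 lower except 1 glycolysis gene, Hk1. In cycling CD8 against resting DP, 7 of 13 mtDNA-encoded genes were lower. Higher were 5 of 19 tricarboxylic acid cycle genes (1 lower), 12 of 16 carriers (1 lower), 41 of 77 mitochondrial ribosome genes, 9 of 17 glycolysis genes (1 lower) and 60 of 82 cytosolic ribosome genes. Of complex assembly factors outside the Ndufaf family, 3 of 35 were higher and 4 lower. Of 21 regulators of mitochondrial biogenesis 3 were higher (Myc, Tfb1m and Pprc1) and 3 lower (Mterf1a, Polg and Esrra), and their median of -0.33 and -0.39 lay next to that of all genes.

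Between genotypes the members' summed share was close to equal. The cKO share over the WT share was 1.06 (1.05 to 1.08) in early DN, 1.03 (1.02 to 1.04) in resting DN3, 1.03 (1.03 to 1.04) in cycling DN and 1.03 (1.02 to 1.03) in cycling CD8. It was 0.997 (0.989 to 1.004) in resting DP, 1.04 (1.02 to 1.05) in post-selection, 0.999 (0.981 to 1.02) in the Klf2/S1pr1 gate and 1.01 (1.001 to 1.027) in the Foxp3 gate, where it was 0.995 with doublets kept. The intervals cover counting error only, and the spread between mice was not measured. The mtDNA-encoded share was further from 1 in several gates, at 0.865 (0.861 to 0.869) in cycling CD8, 0.895 in cycling DN, 0.915 in early DN, 1.05 in resting DP and 1.11 (1.09 to 1.12) in post-selection. It was 0.972 in resting DN3, 0.984 in the Klf2/S1pr1 gate and 0.995 in the Foxp3 gate, and in early DN it was 0.952 without cells holding myeloid marker UMIs.

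For complexes I to V, without the Ndufaf factors, the ratios lay between 0.883 and 1.10. Complex I as a whole was between 0.987 in the Klf2/S1pr1 gate and 1.06 (1.03 to 1.09) in post-selection, and at 1.04 (1.02 to 1.07) in the Foxp3 gate. Complex V was at 1.10 (1.08 to 1.13) in early DN and between 0.994 and 1.04 elsewhere. Complex II was at 0.883 (0.797 to 0.978) in the Foxp3 gate and 0.939 (0.890 to 0.991) in resting DP, and its interval included 1 in the other 6. The Foxp3 gate does not leave out cycling cells, and its cycling markers, 0.276% of UMIs in WT and 0.188% in cKO, had a ratio of 0.682 (0.654 to 0.710), whose part in the Foxp3 ratios was not tested. Unlike the whole complex, the 7 core subunits of complex I were at 0.923 (0.859 to 0.992) in the Foxp3 gate and 0.942 (0.905 to 0.981) in resting DP. The Ndufaf factors were below 1 in 7 gates, with the interval wholly below 1 in 4: 0.879 (0.816 to 0.947) in resting DN3, 0.893 (0.832 to 0.958) in resting DP, 0.905 (0.864 to 0.947) in cycling DN and 0.954 (0.922 to 0.987) in cycling CD8. They were at 1.16 (0.987 to 1.37) in the Klf2/S1pr1 gate.

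The folds counted next add the same fixed amount to each CPM as in the stage contrasts, which draws members with few UMIs towards no difference. Plain ratios of CPM also passed 1.5-fold for Ndufaf6 in resting DP and for Ndufaf2 in the Klf2/S1pr1 gate, both from few UMIs. By the counted folds few members were at least 25% higher in cKO or lower by the same factor. The only one 1.5-fold apart by these folds in any gate was Ndufaf3 in early DN. In early DN 3 of 86 members were at least 25% higher and 1 lower by that factor, against 6.1% and 11% of 7821 genes. In resting DN3 the counts were 1 and 0 of 87, against 3.71% and 6.58% of 9023 genes. In cycling DN they were 2 and 1 of 88, against 1.51% and 2.07% of 9715. In cycling CD8 they were 2 and 0 of 89, against 1.15% and 1.1% of 10169. These gates include DN cells, most of which are thought to precede Cre activity.

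The later gates gave similar shares. In resting DP 0 of 87 members were higher and 1, Ndufaf6, was lower, against 4.2% and 3.15% of 9291 genes. In post-selection 4 of 84 were higher and 0 lower, against 14.2% and 12.2% of 5214. In the Klf2/S1pr1 gate 5 of 82 were higher and 2 lower, against 12.9% and 11.7% of 4806, and in the Foxp3 gate 2 of 84 were higher and 3 lower, against 10.5% and 12.6% of 6952. The members' share lay under that of all genes in 8 of 8 gates for lower values and in 6 of 8 for higher values, the exceptions being the 2 cycling gates. Over the 15 other settings no count of members in either direction passed 7 in any gate. Members have more UMIs than most genes tested, which narrows their counting spread.

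Ndufb1-ps was higher in cKO in all 8 gates. Its CPM in WT and cKO was 375 and 495 in early DN, 335 and 426 in resting DN3, 402 and 520 in cycling DN and 410 and 529 in cycling CD8. It was 345 and 404 in resting DP, 316 and 449 in post-selection, 311 and 420 in the Klf2/S1pr1 gate and 289 and 396 in the Foxp3 gate. The cKO value was above the WT value of the same gate each time, and the ratio ran from 1.17 (1.11 to 1.24) in resting DP to 1.42 (1.23 to 1.65) in post-selection. Early DN was at 1.32 (1.21 to 1.43). Library and genotype cannot be told apart, and the cause of these ratios was not tested.

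The next members by median ratio were small membrane subunits of complex V, which bind the rotor housing or link ATP synthase dimers, and a small subunit of complex I. Atp5mpl was at 311 and 406 CPM in early DN, 441 and 531 in cycling CD8 and 276 and 319 in resting DP, with an interval wholly above 1 in 7 of 8 gates. Atp5k, subunit e, was at 175 and 229, 375 and 470, and 214 and 269 CPM in the same gates, with 6 such gates. Atp5md was at 299 and 370, 403 and 480, and 299 and 336, with 8. Ndufa3 was at 192 and 213, 225 and 264, and 220 and 250, with 6. In each of these gates the cKO value of all 4 genes was the higher one.

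Taken relative to the median gene of each gate, 82 members could be followed in all 8 gates. Above 0 in all 8 were 11 of them (Cox7a2, Cox5b, Cox7c, Ndufv3, Ndufa1, Ndufa3, Ndufb1-ps, Atp5l, Atp5md, Atp5k and Atp5mpl), and below 0 in all 8 was 1, Ndufaf3. Of the 4428 genes tested in every gate, 4.04% were above 0 in all 8 and 3.34% below. The 8 gates share 2 libraries and are not 8 independent measurements.

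**Figure D4:**
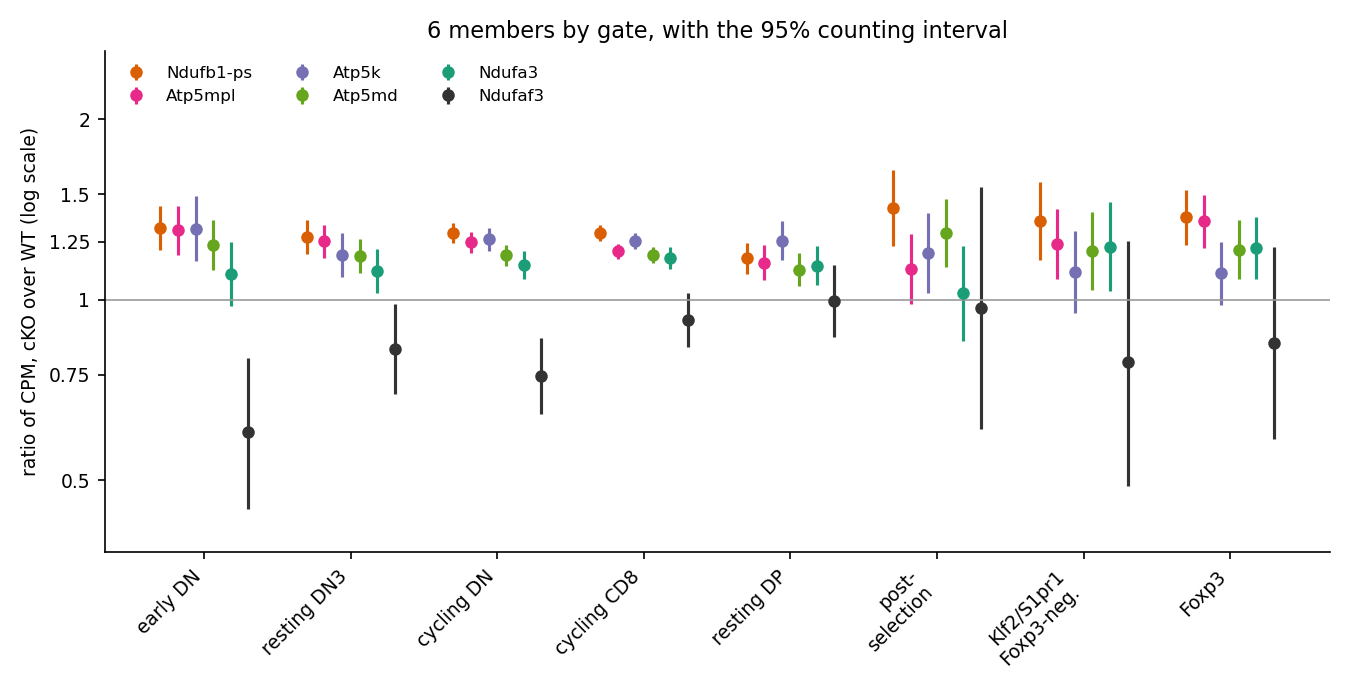
Ratio of CPM in the cKO library over the WT library (log scale) for 6 members in 8 gates, with bars for 95% counting intervals and a line at 1. Ndufb1-ps lies above 1 in every gate, from 1.17 to 1.42, and Ndufaf3 lies lowest in early DN at 0.601.

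Ndufaf3, an early assembly factor of complex I, was the lower member. It was at 54.1 and 32.5 CPM in early DN from 161 and 72 UMIs, a ratio of 0.601 (0.449 to 0.799). In cycling DN it was at 42.0 and 31.4, a ratio of 0.747 (0.645 to 0.864), and in resting DN3 at 59.8 and 49.5, a ratio of 0.828 (0.696 to 0.983). From the DP stage on its interval included 1, at 0.995 (0.866 to 1.14) in resting DP and 0.849 (0.585 to 1.22) in the Foxp3 gate.

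The other low members by median ratio, among those tested in all 8 gates, were Ndufs7, Ndufa9, Ndufaf2 and Ndufaf4. Ndufs7, a core subunit that carries an iron-sulphur cluster next to the quinone site, was at 168 and 140 CPM in resting DN3, a ratio of 0.835 (0.754 to 0.925), and at 138 and 167 in post-selection. Ndufa9 was at 82.6 and 75.2 CPM in resting DN3 and 105 and 97.8 in resting DP, with intervals that included 1 in all 8 gates. Ndufaf2 was at 73.2 and 63.3 CPM in cycling DN, a ratio of 0.865 (0.779 to 0.961), and Ndufaf4 at 88.0 and 79.0, a ratio of 0.898 (0.817 to 0.987). In the Klf2/S1pr1 gate both assembly factors went the other way from few UMIs, Ndufaf2 from 29 and 46 and Ndufaf4 from 56 and 73.

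Of the 5 members with the highest genotype ratios, 4 have transcripts under 500 nt. The length of a gene was taken as the median over its GENCODE vM21 transcripts of the gene's own type. This need not be the length of the transcript counted here, and single lengths may be off for that reason. By this measure the members are short, with a median of 680 nt against 2062 nt for the genes tested in resting DP, and 14 members are under 500 nt. Atp5k is 322 nt long, Atp5md 362, Ndufa3 433 and Atp5mpl 435, while Ndufb1-ps is 667 nt. Relative to the median gene, the median log2 ratio of cKO over WT of members under 500 nt was between 0.09 and 0.22 over the 8 gates, and that of members of 500 to under 1000 nt between -0.02 and 0.08. Genes outside the family had medians between 0.03 and 0.08 for 96 to 195 genes under 500 nt and between -0.04 and 0.03 for those of 500 to under 1000 nt.

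Across members within a gate, Spearman's rho of length with the log2 ratio ran from -0.48 in cycling CD8 (89 members) to -0.12 in post-selection (84), while across all other genes it ran from -0.12 to 0.10. Genes are not independent replicates, and the members share each library's depth and preparation. Of 15 ribosomal protein genes under 500 nt, 14 were above 0 relative to the median gene in early DN, cycling DN and cycling CD8, 13 in resting DN3, 11 in the Foxp3, Klf2/S1pr1 and post-selection gates and 10 in resting DP. Of other genes under 500 nt, without members, mt- and ribosomal protein genes, between 54.8% (post-selection) and 64.4% (cycling CD8) were above 0. Ribosomal protein genes of 500 nt or more were not counted, so these counts do not tie the ribosomal ratios to length. Rps29 and Rps28 are named after their values were seen. Rps29 was at 4928 and 6443 CPM in early DN and 4668 and 6104 in cycling CD8, and Rps28 at 4408 and 5728 and at 3411 and 4384. The Rps29 ratio of cKO over WT was between 1.252 and 1.350 over the 8 gates. Whether transcript length, library preparation or genotype accounts for these ratios was not tested, and library and genotype cannot be told apart.

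**Figure D5:**
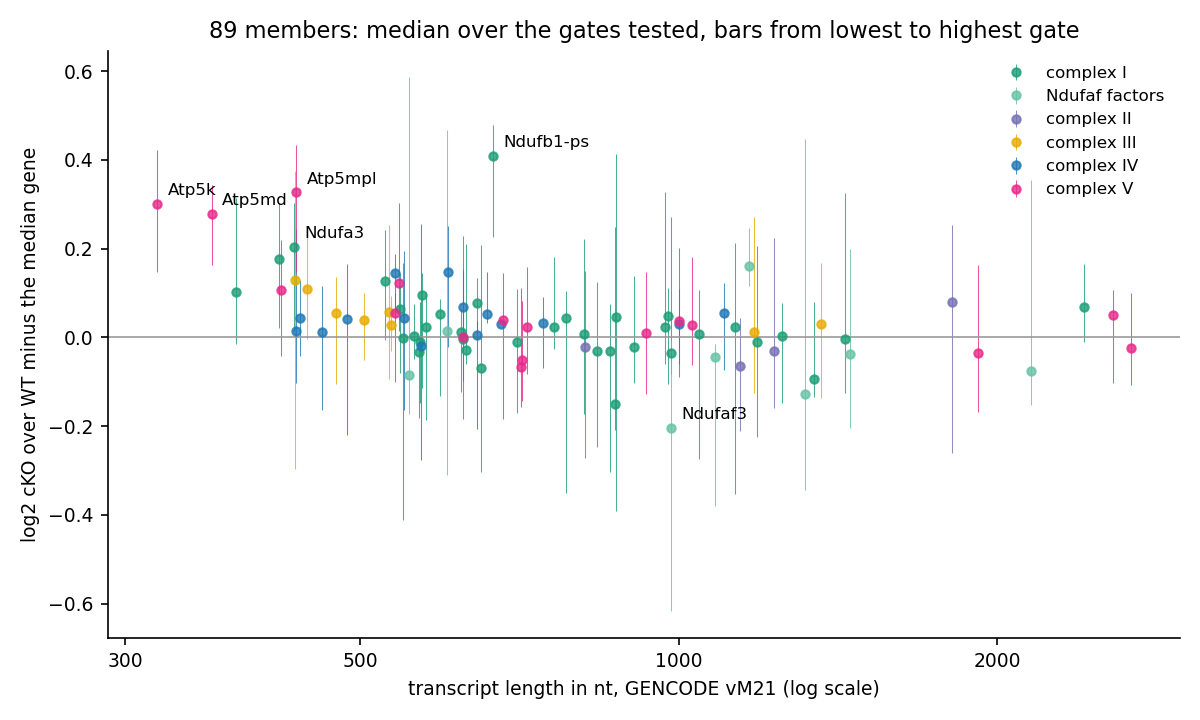
Median over the gates tested of the log2 ratio cKO over WT, relative to the median gene of each gate, against transcript length (log scale) for 89 members, coloured by complex, with bars from the lowest to the highest gate. The 4 labelled members under 500 nt (Atp5k, Atp5md, Ndufa3 and Atp5mpl) and Ndufb1-ps lie highest, and Ndufaf3 lowest.

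The counting interval of a single member's ratio often excluded 1 at small differences. It lay wholly above 1 for 20 of 86 members in early DN and wholly below 1 for 2, against 5.61% and 8.78% of all genes tested. The numbers were 17 and 5 of 87 in resting DN3 (5.88% and 11.1% of all genes), 18 and 5 of 88 in cycling DN (6.85% and 11.2%), 26 and 9 of 89 in cycling CD8 (9.63% and 12.5%) and 10 and 15 of 87 in resting DP (8.78% and 8%). In the smaller gates they were 6 and 2 of 84 in post-selection (6.79% and 6.29%), 7 and 5 of 82 in the Klf2/S1pr1 gate (5.47% and 5.7%) and 10 and 7 of 84 in the Foxp3 gate (7.83% and 9.21%). Members have more UMIs than most genes, which narrows their intervals: of genes with at least 1000 UMIs, 21.7% lay above 1 and 19.2% below in early DN, 13.8% and 17.6% in cycling CD8 and 15.6% and 14.6% in resting DP. These shares were 14.3% and 23.1% in resting DN3, 11.5% and 20.3% in cycling DN and 18.1% and 20.9% in post-selection. In the Klf2/S1pr1 gate they were 17.0% and 25.7%, and in the Foxp3 gate 19.7% and 25%. In cycling CD8 only Atp5k and Ndufb1-ps were at least 25% higher. Cox7a2l, the member furthest down in both cycling contrasts, had a genotype ratio between 0.941 (early DN) and 1.09 (Foxp3).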

How the data were processed

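The analysis started from the integer UMI count of every gene in every barcode, as the authors deposited it from Cell Ranger 6.1.1, the version in the file headers. CASAVA 1.8 and Seurat 4.0.3 are also listed in the submitters' processing notes. The build of the genome was not given in the sources used here. Barcodes were kept with 500 or more genes, 1000 or more UMIs and no more than 10% of UMIs from mt- genes. Scrublet (scanpy 1.11.5, expected rate 6%) scored doublets. Its automatic threshold of 0.638 called 1 barcode in the cKO library, so the WT threshold of 0.290 was used for both and removed 148 WT and 129 cKO barcodes.

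UMIs were summed per gate and library in Python 3.11.15 (NumPy 2.4.6, pandas 2.3.3, SciPy 1.17.1, matplotlib 3.10.9) and scaled to the gate's total (CPM). Folds are log2 ratios of CPM + 5 for genes with at least 50 UMIs. Shares carry exact Clopper-Pearson 95% intervals, and ratios the exact binomial interval of both counts. These cover counting error only. The calculations were tested on simulated data.

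The members, gates, lists and thresholds were chosen with earlier results of these data known. The lists were mtDNA-encoded OXPHOS, tricarboxylic acid cycle, carriers, assembly, biogenesis regulators, mitochondrial and cytosolic ribosome, glycolysis and cell type markers. The named genes are the SETDB genes, the member with most UMIs in each complex, the 5 highest and 5 lowest by median genotype fold relative to the median gene (of members with 50 UMIs in every gate), the 3 highest and 3 lowest of each stage contrast, the 2 genes on each side of the 500 UMI limit, the Sdh genes, isoform families, and list genes at least 1.5-fold apart in 3 gates. Genes outside this rule were named after their values were seen. Alternatives varied the cell filter, doublets, gates, denominator, scaling, averaging, pseudocount, UMI minimum and members.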

Additional observations from a re-analysis of the deposited data

Results flagged for a closer look

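Some ratios of cKO over WT lay on opposite sides of 1 in 2 gates, with both 95% counting intervals clear of 1. With 1 library per genotype the difference between gates was not tested in any of these cases, and the pairs were found by looking over many genes and gates.

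The 3 c-ring genes of ATP synthase summed to a ratio of 1.05 (1.01 to 1.10) in early DN and 0.902 (0.839 to 0.969) in the Klf2/S1pr1 gate. Of these genes Atp5g2 was at 1.07 in resting DN3 and 0.871 in the Klf2/S1pr1 gate. The F1 subunit gene Atp5b was at 1.09 in early DN and 0.886 in the Foxp3 gate. The mtDNA-encoded genes were at 1.11 in post-selection and 0.865 in cycling CD8.

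In complex IV, Cox4i1 was at 1.04 in cycling DN and 0.954 in resting DP. Cox6a1 was at 1.17 in early DN and 0.815 in the Klf2/S1pr1 gate, and Cox6b1 at 1.09 in resting DN3 and 0.870 in post-selection. Cox7a2l was at 1.09 in the Foxp3 gate and 0.951 in resting DP. In complex I, the assembly factor Ndufaf8 was at 1.39 (1.03 to 1.89) in the Klf2/S1pr1 gate and 0.795 (0.690 to 0.915) in resting DP. Ndufs4 was at 1.36 (1.12 to 1.65) in post-selection and 0.748 (0.595 to 0.940) in the Klf2/S1pr1 gate, both small gates.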

How the results depend on the processing

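No paired analysis was possible because each genotype is 1 library. All alternatives were run, 3 of them chosen after seeing the data. Of the values of the main results under alternatives, 100 stayed within the counting interval or within 1.5 times the count, 47 moved and 1 reversed. The cause of these moves was not tested. The reversed value was the cKO over WT ratio in the Foxp3 gate, which was 0.995 with doublets kept in place of 1.01. It was 1.04 (1.039) with gates called on thinned counts and 1.04 (1.043) as a mean of per-cell CPM. In resting DN3 the genotype ratio was 1.047 under the stricter filter, 1.053 on thinned gates, 1.054 with mt- and ribosomal protein genes left out of the denominator (the reduced denominator) and 1.058 scaled to the median gene. In cycling CD8 it was 1.021 with gate minima raised by 1 UMI, 1.023 on thinned gates, 1.035 with the reduced denominator, 1.033 by per-cell means and 1.036 scaled to the median gene. In resting DP it was 1.008 under the stricter filter and 1.012 by per-cell means, above 1 in both.

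Cycling DN over resting DN3, in WT and cKO, was 1.275 and 1.247 under the stricter filter, 1.347 and 1.317 on thinned gates, 1.241 and 1.236 with the reduced denominator, 1.444 and 1.428 scaled to the median gene, 1.269 and 1.286 by per-cell means and 1.346 and 1.354 without cells holding myeloid marker UMIs. With raised minima it was 1.348 in WT. Cycling CD8 over resting DP was 1.437 and 1.466 under the stricter filter, 1.492 and 1.520 with raised minima, 1.421 and 1.454 on thinned gates, 1.679 and 1.736 with the reduced denominator and 1.838 and 1.932 scaled to the median gene. It was 1.477 in WT by per-cell means and 1.495 in cKO with the first gate called without Cd79b. The 24 members higher in cycling DN became 14 under the stricter filter, and the 40 higher in cycling CD8 became 63 scaled to the median gene. The 1 lower member in cycling DN became 0 on thinned gates and 2 with the reduced denominator. The 2 lower in cycling CD8 became 0 scaled to the median gene and 1 on thinned gates, with the reduced denominator, with a pseudocount of 20 or without Ndufaf factors.

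Among the other results 12 values reversed. Klf2/S1pr1 over post-selection turned to 1.048 and 1.008 with the reduced denominator and 1.070 and 1.055 scaled to the median gene. The mtDNA-encoded ratio of cKO over WT in the Klf2/S1pr1 gate turned to 1.012 with the looser filter, 1.006 with raised minima and 1.004 by per-cell means, and in resting DN3 to 1.001 scaled to the median gene. In cKO the mtDNA-encoded share of Klf2/S1pr1 over post-selection turned to 1.056 with the reduced denominator and 1.105 scaled to the median gene, post-selection over resting DP to 1.0205 scaled to the median gene, and Foxp3 over Klf2/S1pr1 to 1.011 on thinned gates. Of the gates, post-selection and Klf2/S1pr1 held the fewest UMIs in all, at 964878 and 1046324 and at 981077 and 992209 in WT and cKO.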

Other observations

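Genes of glycolysis, the cytosolic breakdown of glucose that supplies pyruvate to the mitochondria, were further apart between the libraries than the OXPHOS genes in the Foxp3 gate. The summed share of the 20 genes was 0.376% of UMIs in WT and 0.313% in cKO there, a ratio of 0.833 (0.806 to 0.861), and 14 of the 15 genes with enough UMIs were lower in cKO, against 3514 of all 6952 genes tested. Cycling markers were lower in that gate too, at 0.276% and 0.188% of UMIs, a ratio of 0.682 (0.654 to 0.710), and glycolysis genes were higher in cycling gates, while the part of cycling cells in this ratio was not tested. Pgk1, which makes ATP in the pathway, was at 181 CPM in WT and 132 in cKO, Tpi1 at 136 and 92.8, and the glucose transporter gene Slc2a3 at 30.0 and 16.4. Against 1, the glycolysis ratio was also lower in the Klf2/S1pr1 gate, at 0.892 (0.851 to 0.935), and in resting DP, at 0.919 (0.898 to 0.940), and higher in resting DN3, at 1.04 (1.02 to 1.07). The mitochondrial ribosome genes, which translate the mtDNA-encoded subunits, had ratios between 0.9502 in post-selection and 1.01 in early DN, and the tricarboxylic acid cycle genes between 0.923 in the Klf2/S1pr1 gate and 1.02 in cycling CD8. These intervals cover counting error only, and no difference between genotypes was tested.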
